A study of Homo sapiens with 6 samples.

Results

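The genes described here are those of the vault particle, chosen by name: the 4 human vault RNAs VTRNA1-1, VTRNA1-2, VTRNA1-3 and VTRNA2-1 and the 3 vault proteins MVP, TEP1 and PARP4. A gene was taken where the annotation of the array gave a probe group this single symbol, and the brightest group over the 6 arrays would have stood for a gene with several. By this rule 5 of the 7 were found among 18417 named genes, each with 1 probe group: VTRNA1-1, VTRNA1-2, VTRNA1-3, MVP and PARP4. VTRNA2-1 and TEP1 were not analysed here. The brightness used by the rule is given only as a description.

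Vaults are barrel-shaped ribonucleoprotein particles of the cytoplasm whose function is not settled. Many copies of the major vault protein MVP form the shell, PARP4 and TEP1 lie inside it, and short untranslated vault RNAs, made by RNA polymerase III from promoters that include elements within the gene, are bound to a part of the particles. MVP is also known as lung resistance-related protein from its high level in some drug-resistant tumour cells, and vault RNAs have roles outside the particle, such as the binding of the autophagy receptor SQSTM1 by VTRNA1-1.

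The cells were MDA-MB-231, a long-established line of triple-negative human breast cancer, kept in serum-supplemented medium, and both groups were this same line with no genetic change named. The treated group received 1 µM selamectin, an avermectin-type macrocyclic lactone used against parasites in animals, for 24 h, and the series title places such compounds among blockers of SIN3, a scaffold of transcriptional repressor complexes. The control group is called untreated in the titles and vehicle in the treatment text, so what it received is not settled. There were 3 arrays in each group, and RNA was measured on Affymetrix whole-transcript arrays as log2 expression values, 1 for each probe group. Of the markers of the line, VIM had a mean log2 value of 12.67 in untreated cells and CDH1, the epithelial cadherin that these cells largely lack, 6.27. Untreated means of the 5 markers listed as high ran from 7.64 (SPARC) to 12.67 (VIM). Those of the 5 listed as low ran from 5.60 (PGR) to 9.17 (ERBB2), so these lists overlapped. Untreated means of the 4 leukocyte markers ran from 4.84 (PTPRC) to 10.07 (CD68) and those of the 4 endothelial markers from 5.48 (PECAM1) to 9.52 (CDH5), so these lists were not dim throughout. CDH5 stood at a log2 change of -0.59 with arrays that did not overlap (limma adjusted p = 0.067). Among 5 markers listed as high in this line CD44 rose (log2 change 0.42, limma adjusted p = 0.020) and SPARC, with an untreated mean of 7.64, fell (-0.45, adjusted p = 0.033); of 4 fibroblast markers PDGFRB rose (0.34, adjusted p = 0.040), and none of 5 markers listed as low in the line (hormone receptors, ERBB2 and epithelial genes), 4 leukocyte and 4 endothelial markers passed. Values of different probe groups are not comparable as amounts of RNA, and no detection calls were used, so a dim group may not be above background.

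Of the 5 measured vault genes, 1 fell after selamectin and none rose, by limma with adjustment over all genes at a threshold of 0.05. Over all 18417 genes 2.28% were called lower and 2.41% higher. At an unadjusted p under 0.05 in limma, 2 of the 5 were lower and 1 was higher, where 19.9% of all genes passed in either direction. The gene that fell was VTRNA1-3. The median log2 change of the 5 was -0.45, beside 0.04 over all genes. All 3 vault RNAs had lower means with selamectin, MVP had a higher one, and PARP4 was nearly level. The genes were put forward with earlier results of these arrays known, so these p-values are not independent evidence. In RNA from whole cultures, fewer cells that make a transcript and less of it per cell cannot be told apart.

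**Figure D1:**
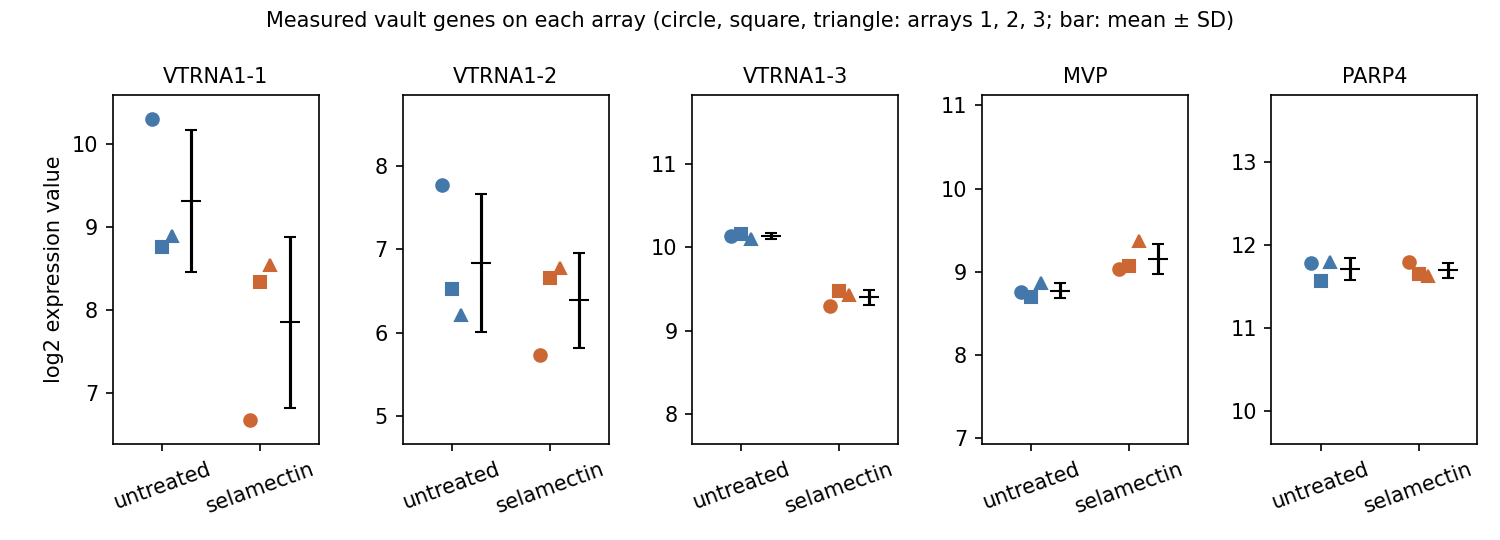
Log2 expression values of the 5 measured vault genes on each of 3 untreated and 3 selamectin arrays, on axes of equal span, with the mean ± SD beside the points. The VTRNA1-3 arrays fall into 2 tight groups that do not overlap, while VTRNA1-1 and VTRNA1-2 are widely spread, highest on untreated array 1 and lowest on selamectin array 1.

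VTRNA1-3, a vault RNA of 88 nucleotides in RefSeq, had log2 values of 10.14, 10.16 and 10.10 on untreated arrays 1, 2 and 3 and of 9.30, 9.48 and 9.43 on the 3 selamectin arrays. All treated arrays lay below all untreated ones, with a gap several times wider than the spread inside either group. The mean went from 10.13 ± 0.03 to 9.40 ± 0.09 (SD, n = 3), a log2 change of -0.73 ± 0.09 SE (95% interval -0.93 to -0.54). This is 1.66-fold lower, with an interval from 1.45-fold to 1.91-fold, and the limma adjusted p was 0.0040. By p-value it ranked 22 among 18417 genes, and 71 genes, itself included, had a change at least as negative. The call held whichever single array was left out, with limma adjusted p between 0.0020 and 0.027. It also held without both arrays numbered 1, at -0.68 (adjusted p = 0.030), and with all 33297 probe groups in the fit (adjusted p = 0.039), where 0.748% of the groups were called.

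VTRNA1-1, the vault RNA known to bind SQSTM1 and the longest of the 3 at 98 nucleotides, had log2 values of 10.30, 8.76 and 8.89 on the untreated arrays. On the selamectin arrays it had 6.68, 8.34 and 8.54. The groups did not overlap, but untreated array 1 stood well above the other untreated arrays and selamectin array 1 well below the other treated ones. The mean was 9.32 ± 0.85 untreated and 7.85 ± 1.02 with selamectin (SD, n = 3). The log2 change of -1.46 ± 0.47 SE (95% interval -2.50 to -0.43) was among the 3 most negative of all 18417 genes, at 2.76-fold lower, yet it did not pass (limma adjusted p = 0.11).

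The size of the VTRNA1-1 difference rested on the arrays numbered 1. It was -0.97 without untreated array 1, -0.88 without selamectin array 1 and -0.38 without both, none of which passed. Without selamectin array 3 the change was -1.81 and did pass (limma adjusted p = 0.039). It also passed with array weights (-1.38, limma adjusted p = 0.029), which give untreated array 3 a weight of 5.11 and untreated array 1 one of 0.66. Over all genes 464 were called lower without selamectin array 3 and 1464 with array weights, against 420 in the main fit.

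VTRNA1-2, also of 88 nucleotides, had log2 values of 7.78, 6.52 and 6.22 on the untreated arrays and of 5.73, 6.66 and 6.77 on the selamectin arrays. The groups overlapped: selamectin arrays 2 and 3 lay above untreated arrays 2 and 3. The means were 6.84 ± 0.83 and 6.39 ± 0.57 (SD, n = 3), with a log2 change of -0.45 (95% interval -1.23 to 0.33, limma adjusted p = 0.52). The interval is wide enough to hold both the fall of VTRNA1-3 and no change. The difference turned to 0.020 without untreated array 1 and to 0.35 without both arrays numbered 1, so these arrays give it no settled direction. Its mean signal lay at percentile 27.0 of all genes, against 54.9 for VTRNA1-1 and 73.1 for VTRNA1-3.

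The 3 vault RNAs thus differed in how much they varied inside a group. The pooled within-group SD was 0.94 for VTRNA1-1, 0.71 for VTRNA1-2 and 0.07 for VTRNA1-3, beside a median of 0.15 over 380 other small RNA clusters (small nucleolar, Cajal body and small nuclear RNAs and microRNA genes) and 0.11 over all genes. VTRNA1-1 varied more than 98.7% of those small RNA clusters and VTRNA1-2 more than 96.1%, while VTRNA1-3 varied more than only 15% of them. Of the 380, 203 reached the 25th percentile of brightness over all genes and 121 the median. Most were thus dimmer than VTRNA1-1 and VTRNA1-3, and spread was not compared at like brightness. The spread of VTRNA1-1 and VTRNA1-2 was shared. Relative to the untreated mean, untreated array 1 stood at 0.98 for VTRNA1-1 and 0.94 for VTRNA1-2. Selamectin array 1 stood at -2.64 and -1.10. VTRNA1-3 was at 0.01 and -0.84 on the same 2 arrays, close to the other arrays of its group.

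**Figure D2:**
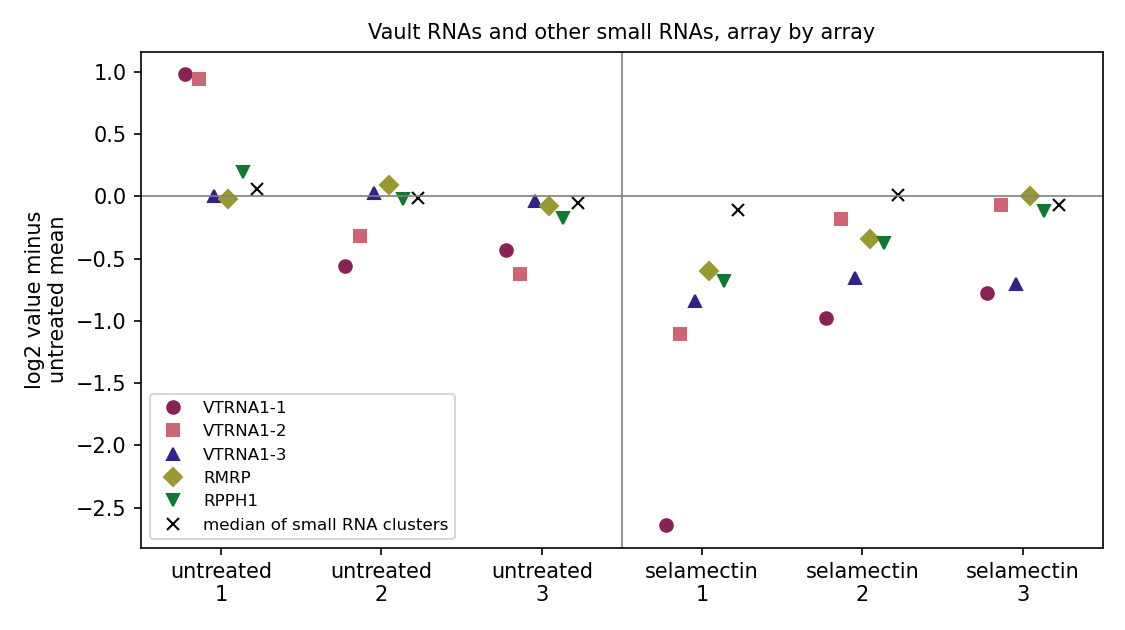
Log2 value minus the untreated mean (vertical axis) on each array for the 3 vault RNAs, 2 other RNA polymerase III transcripts (RMRP and RPPH1) and the median of 380 small RNA clusters. VTRNA1-1 and VTRNA1-2 stand near 1 on untreated array 1 and lowest on selamectin array 1, while the small RNA median stays between -0.11 and 0.06 on all arrays.

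Differences between genes on the same array remove any shift that 2 probe groups share. VTRNA1-1 minus VTRNA1-2 was 2.52, 2.24 and 2.67 on the untreated arrays and 0.94, 1.68 and 1.77 on the selamectin arrays. The groups did not overlap, and the spread was smaller than that of VTRNA1-1 alone (SD 0.22 untreated and 0.45 with selamectin). The difference shifted by -1.01, and by between -1.17 and -0.75 when 1 array was left out, so VTRNA1-1 stood lower relative to VTRNA1-2 on every treated array. The exact two-sided permutation p was 0.10, the smallest that 3 against 3 arrays can give, and 0.17 after Benjamini-Hochberg adjustment over the 10 pairs of measured vault genes. VTRNA1-2 was the dimmer of the pair, at 5.73 to 6.77 on the selamectin arrays. Whether a signal floor made its fall look smaller was not tested.

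VTRNA1-1 minus VTRNA1-3 ranged from -1.40 to 0.16 on the untreated arrays and from -2.62 to -0.88 on the selamectin arrays. These overlapped, with a shift of -0.73 and an exact permutation p of 0.60. The shift was -0.19 without selamectin array 1, -0.24 without untreated array 1 and -1.06 without selamectin array 3, so its size rests on single arrays and unequal change of these 2 was not detectable. VTRNA1-2 minus VTRNA1-3 shifted by 0.28 (exact permutation p = 0.70), and by -0.0097 without untreated array 3. VTRNA1-3 minus MVP was 1.39, 1.47 and 1.23 on the untreated arrays and 0.27, 0.41 and 0.06 on the selamectin arrays. These did not overlap, and the shift was -1.12 (exact permutation p = 0.10). VTRNA1-1 and VTRNA1-3 were each lower, and MVP higher, with no overlap of the groups. Their differences from MVP therefore had to separate the groups and add no evidence of their own. Of the 10 pairs, 6, these included, had groups that did not overlap, each with this smallest possible p. The differences of VTRNA1-1, VTRNA1-3 and MVP from PARP4 were also among the 6. PARP4 was nearly level (log2 change -0.020), so these largely repeat the separation of each single gene. The share over other pairs of genes was not computed, so the count is given only as a description. The probes behind each group were not used here, so whether the related VTRNA1 sequences share signal was not tested.

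**Figure D3:**
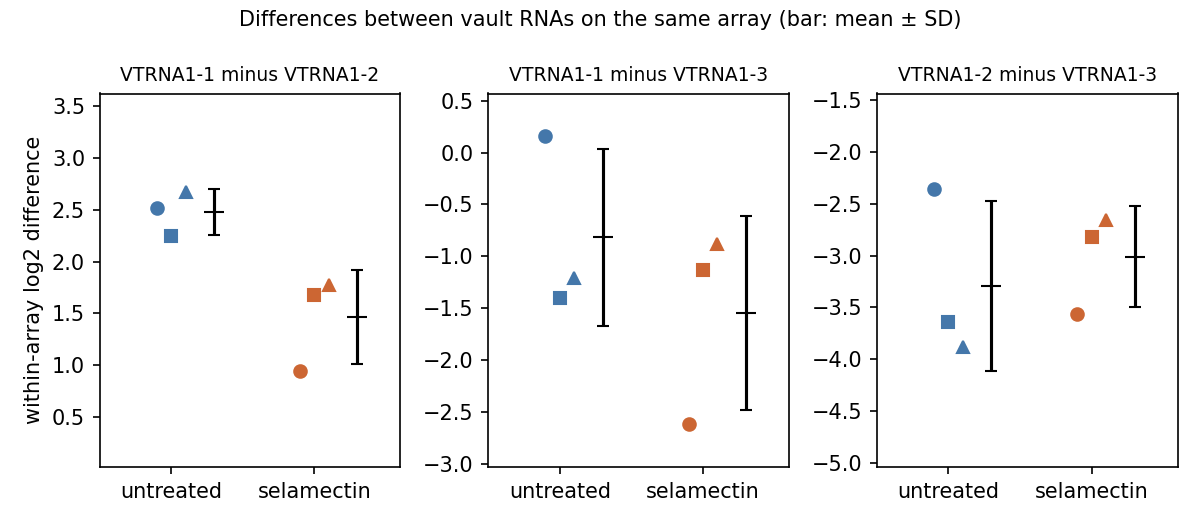
Within-array log2 differences between the 3 vault RNAs on the untreated and selamectin arrays (circle, square and triangle for arrays 1, 2 and 3), with mean ± SD. VTRNA1-1 minus VTRNA1-2 separates the groups, at 2.24 to 2.67 against 0.94 to 1.77, while the other differences overlap.

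MVP, the shell protein of the vault, had log2 values of 8.75, 8.69 and 8.87 on the untreated arrays and of 9.03, 9.06 and 9.37 on the selamectin arrays. All treated arrays lay above all untreated ones, and selamectin array 3 was the highest. The mean was 8.77 ± 0.09 untreated and 9.15 ± 0.18 with selamectin (SD, n = 3), a log2 change of 0.38 ± 0.11 SE (95% interval 0.14 to 0.63), or 1.30-fold. It did not pass (limma adjusted p = 0.076). It passed when arrays were centred on the small RNA clusters (0.43, adjusted p = 0.031) and otherwise only at a threshold of 0.10.

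PARP4, the vault poly(ADP-ribose) polymerase, had log2 values of 11.78, 11.56 and 11.79 on the untreated arrays and of 11.79, 11.65 and 11.63 on the selamectin arrays. The groups overlapped fully, with means of 11.71 ± 0.13 and 11.69 ± 0.09 (SD, n = 3). The log2 change was -0.020 and its 95% interval reached from -0.22 to 0.18 (limma adjusted p = 0.92), so a change of the size seen for VTRNA1-3 lay outside it. The sign turned to 0.025 when arrays were centred on the small RNA clusters. Counted over the 5 vault genes, the arrays of the groups did not overlap for 2 that were lower and 1 that was higher. Over all genes this held for 9.3% in the lower and 16% in the higher direction, 25.3% together.

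A start site region of MVP is shown because, of the 5 measured vault genes, MVP was the one with an entry among the RefSeq start site windows used here (GRCh38.p14). There were 3 such windows for MVP, each from 250 bases before to 50 bases after a start, and the first 2 overlap. The 250 bases before the most upstream start lie at chr16:29820144-29820393 on the plus strand. The motifs searched on both strands were GGGCGG for the GC box, CCAAT for the CCAAT box, TATAAA for the TATA box and TTCNNNGAA for the STAT type of site, and capitals mark a match to any of them.
MVP: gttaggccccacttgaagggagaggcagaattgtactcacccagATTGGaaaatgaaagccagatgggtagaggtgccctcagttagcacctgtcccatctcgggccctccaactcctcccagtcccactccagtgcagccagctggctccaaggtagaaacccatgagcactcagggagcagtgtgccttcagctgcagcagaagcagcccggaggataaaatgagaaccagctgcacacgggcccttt
The single match in this window was CCAAT on the minus strand, which reads ATTGG here. None of the 4 motifs matched in the other two MVP windows or in the 50 bases after this start. Over 35116 windows of the same length, 34.6% held CCAAT, 45% held GGGCGG, 11.5% held TATAAA and 7.66% held TTCNNNGAA. A match is a description of the letters, not of a bound site.

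A few genes of the RNA polymerase III machinery, which makes the vault RNAs, rose and none fell. Of 17 measured polymerase subunits 1 rose and none fell, and of 17 initiation factors and their repressor 2 rose and none fell, where 2.41% of all genes were called higher. POLR3C, a subunit of the initiation subcomplex, went from 10.10, 9.88 and 10.21 to 10.56, 10.53 and 10.63 on the selamectin arrays. Its log2 change was 0.51 (limma adjusted p = 0.019). GTF3C6, a subunit of the TFIIIC complex that binds the internal promoter of vault RNA and transfer RNA genes, went from 10.38, 9.82 and 10.23 to 11.00, 10.87 and 10.75, a change of 0.73 (adjusted p = 0.014). GTF3A, the TFIIIA factor of 5S ribosomal RNA genes, rose by 0.44 (adjusted p = 0.023).

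For these 3 the treated arrays lay above all untreated arrays, opposite in direction to VTRNA1-3. The median log2 change was 0.15 for the subunits and 0.07 for the factors, beside 0.04 for all genes, and 11 and 12 of 17 were positive, where 11596 of all 18417 genes were. At an unadjusted p under 0.05 in limma, 7 subunits were higher and 1 lower, and 3 factors were higher and 2 lower. Over all genes 2162 were higher and 1512 lower. The higher subunits were POLR3B, POLR3C and POLR3F, and POLR1C, POLR2E, POLR2H and POLR2L, which are shared with other RNA polymerases. The count is thus not one of polymerase III alone. No subunit was called without untreated array 1 or without selamectin array 2, and 3 were without selamectin array 3. Over all genes 76, 96 and 685 were called higher in these fits, in that order, against 444 in the main fit. Of the factors, none was called without selamectin array 2, 2 without selamectin array 3 and 1 when each of the other 4 arrays was left out in turn. Neither list held a call when all 33297 probe groups entered the fit, where 0.748% of the groups were called.

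The alternative subunits POLR3G and POLR3GL, which define the 2 forms of the polymerase, and the repressor MAF1 were picked out after their values were seen. POLR3GL had log2 values of 7.17, 6.63 and 6.73 untreated and of 6.52, 6.34 and 6.28 with selamectin, a change of -0.46 that did not pass (limma adjusted p = 0.069). POLR3G changed by 0.08 (adjusted p = 0.66). MAF1 stood at 0.19 (adjusted p = 0.39).

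**Figure D4:**
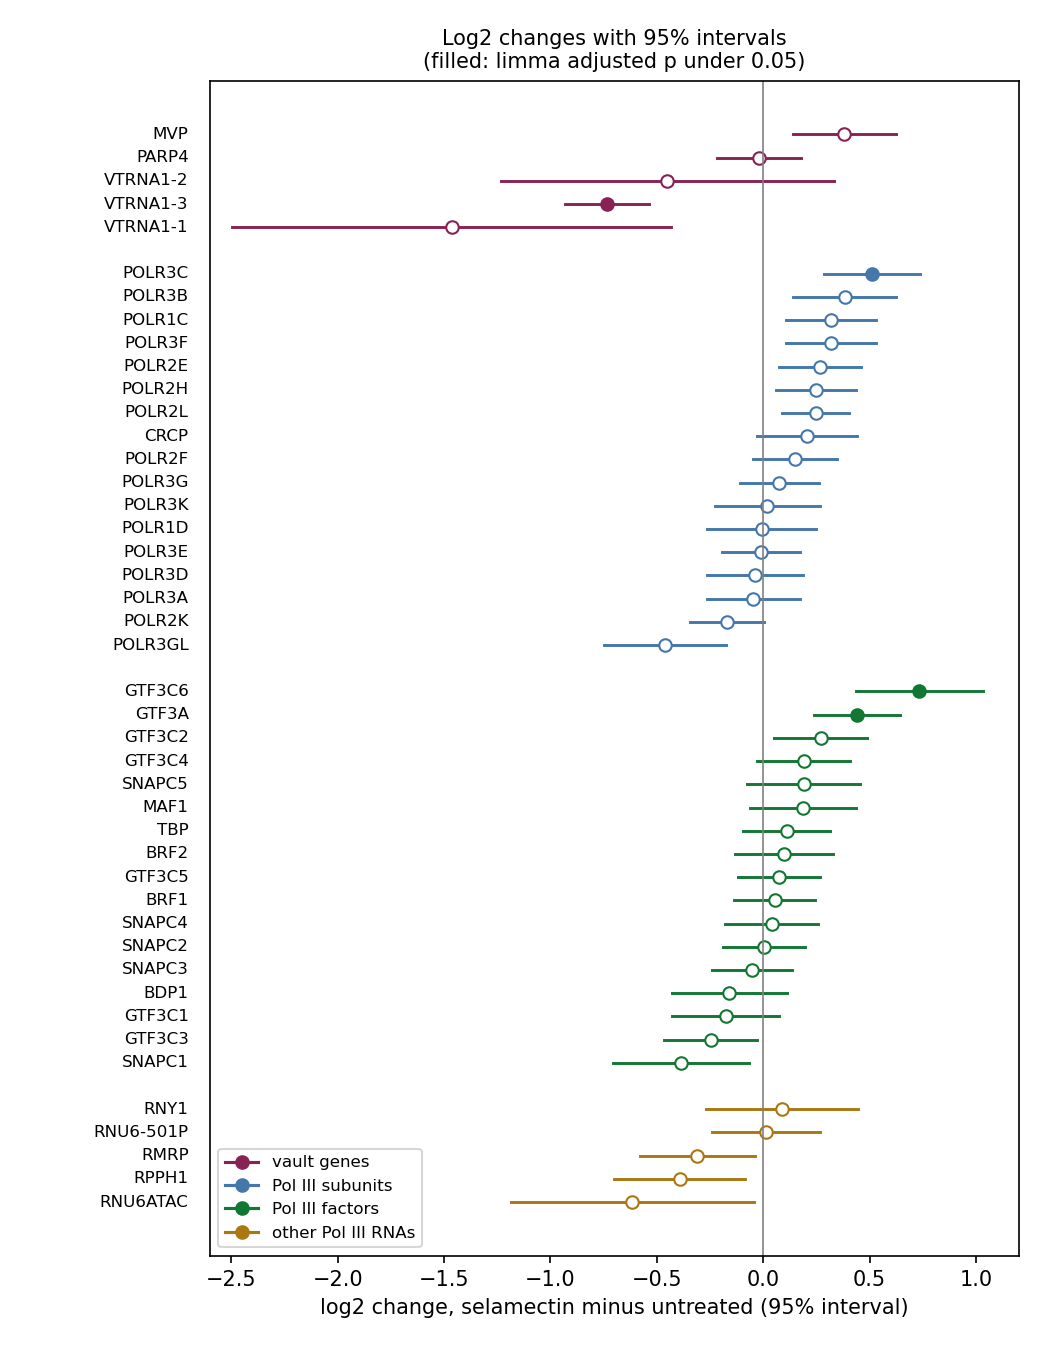
Log2 changes (selamectin minus untreated) with 95% intervals of the fit for the vault genes, RNA polymerase III subunits and factors, and other transcripts of this polymerase, filled where the limma adjusted p was under 0.05. VTRNA1-3 at -0.73 is the one filled point on the lower side, and POLR3C, GTF3C6 and GTF3A are filled on the higher side.

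Of other transcripts of RNA polymerase III, 5 of 12 listed were measured and none passed in limma. With no adjustment of p, 3 were below 0.05 in the lower direction and none in the higher, where 1512 and 2162 of all 18417 genes were. RPPH1, the RNA of ribonuclease P, had log2 values of 11.58, 11.36 and 11.21 untreated and of 10.70, 11.01 and 11.27 with selamectin, a change of -0.39 (adjusted p = 0.14). RMRP, the RNA of the related ribonuclease MRP, had 13.55, 13.66 and 13.49 untreated and 12.97, 13.23 and 13.57 with selamectin, a change of -0.31 (adjusted p = 0.19). For both, as for VTRNA1-3, selamectin array 1 was the lowest. Unlike in VTRNA1-3, selamectin array 3 lay inside the untreated range.

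RNU6ATAC, a small nuclear RNA of the minor spliceosome, changed by -0.61 (limma adjusted p = 0.22), with untreated values from 8.38 to 9.67. It too was highest on untreated array 1 and lowest on selamectin array 1. RNY1, a Y RNA bound by the RO60 protein, changed by 0.09 (adjusted p = 0.80). The median of the 5 was -0.31. With array weights, or with arrays centred on the small RNA clusters, 1 of the 5 was called lower, and without selamectin array 3 it was 2. Over all genes 1464, 437 and 464 were called lower in these fits, in that order, against 420 in the main fit.

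Among the 380 other small RNA clusters, 9 fell and none rose. These are 2.37% of the clusters, close to the 2.28% of all genes called lower, while 4.69% of all genes were called in either direction. At an unadjusted p under 0.05 in limma, 70 were lower and 10 higher, beside 1512 and 2162 of all 18417 genes. Of the 380 clusters, 249 had a negative change and 131 a positive one (6821 and 11596 over all genes), and the median was -0.06. The arrays of the groups did not overlap in the lower direction for 11.8% of them, beside 9.3% of all genes. Those that fell were the microRNA genes MIR32, MIR15A, MIR15B, MIR148B and MIR21 and the small nucleolar RNAs SNORD38B, SNORA38B, SNORA75 and SNORD13P2, with log2 changes of the 9 between -0.86 and -0.58. VTRNA1-3, at -0.73, lay inside this range. RNU6ATAC is counted among the 380 too, and so is another of the 5 measured polymerase III transcripts, RNU6-501P (log2 change 0.01), named only for this overlap. The number that fell was 3 without untreated array 1, 24 without selamectin array 3, 5 without selamectin array 1 and 5 without selamectin array 2. Over all 18417 genes 100, 464, 338 and 138 fell in these fits, in that order, against 420 in the main fit. With arrays centred on the median of the small RNA clusters, 44 of them fell, and 437 of all genes.

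Proteins listed as handling vault RNAs or other small RNAs showed no call. Among the 9 were SSB (the La protein that binds the ends of new polymerase III transcripts), NSUN2 (the methyltransferase of vault RNA cytosines) and DICER1. The list also held the microRNA pathway proteins DROSHA, DGCR8 and XPO5. None of the 9 was called by limma, and none had an unadjusted p below 0.05. The log2 changes ran from -0.12 for RO60 to 0.17 for SRSF2, a splicing factor reported to bind VTRNA1-1, with DGCR8 at 0.12 and XPO5 at 0.09. The 95% intervals were from -0.17 to 0.25 for SSB and from -0.22 to 0.31 for NSUN2, both picked out with their values known.

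Of 6 measured partners of vault RNAs or MVP none passed in limma, with 1 higher at an unadjusted p under 0.05. That one was SQSTM1, the autophagy receptor bound by VTRNA1-1, at 11.66, 11.80 and 11.88 untreated and 12.09, 12.00 and 12.22 with selamectin. The groups did not overlap and the log2 change was 0.32 (adjusted p = 0.065), opposite in sign to that of VTRNA1-1. One partner was called when genes below the median brightness were left out and when arrays were centred on the small RNA clusters. EIF2AK2, the kinase PKR, stood at 0.12, HIF1A at 0.05 and COP1, a ubiquitin ligase, at 0.05.

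Of 16 other members of the PARP family none passed in limma, with 2 higher and 2 lower at an unadjusted p under 0.05. TIPARP, a mono-ADP-ribosyltransferase induced by the aryl hydrocarbon receptor, stood at -0.45 (limma adjusted p = 0.052) and PARP14 at -0.40 (adjusted p = 0.089), with non-overlapping arrays for both. PARP6 stood at 0.27 and PARP3 at 0.29. PARP4, at -0.020, was near the median of these genes, 0.03. A lower call was made for 1 or 2 of them in several settings, among them the second quantile normalization and the robust fit.

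TEP1 is also known as a telomerase-associated protein, and of 7 telomerase genes none passed in limma and none had an unadjusted p under 0.05. TERC, the telomerase RNA, was at 11.19, 11.30 and 11.16 untreated and 10.51, 11.03 and 11.19 with selamectin, a change of -0.31 (adjusted p = 0.27), again lowest on selamectin array 1. DKC1 stood at 0.21, NHP2 at 0.10 and the catalytic subunit TERT at -0.05. Of 3 multidrug transporters often studied beside MVP none passed in limma and 1 was lower at an unadjusted p under 0.05, ABCC1 at -0.42 (adjusted p = 0.076), while ABCB1 stood at 0.06 and ABCG2 at -0.06.

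The 3 VTRNA1 genes lie next to each other, and the 5 measured genes on each side of them did not share their direction. All 10 had a positive log2 change, between 0.10 and 0.27 with a median of 0.17, and none passed in limma. Over all 18417 genes 11596 had a positive change. HARS1, a histidyl-tRNA synthetase gene before the cluster, stood at 0.25 (limma adjusted p = 0.19), and ZMAT2, the nearest before it, at 0.16. After the cluster come the protocadherin alpha genes, of which PCDHA4 stood at 0.27 (adjusted p = 0.084). These protocadherin genes share exons and are not independent of each other.

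Of the 10 neighbours of MVP 1 rose and 1 fell, where 2.41% of all genes were called higher and 2.28% lower. CDIPT, the phosphatidylinositol synthase gene next to MVP, rose by 0.47 (limma adjusted p = 0.0497) and SEZ6L2 fell by 0.42 (adjusted p = 0.037), while PAGR1 on the other side stood at 0.36 (adjusted p = 0.071). Of the 10 neighbours of PARP4 1 fell, CPAP, a centriole protein gene, at -0.54 (adjusted p = 0.034).

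**Figure D5:**
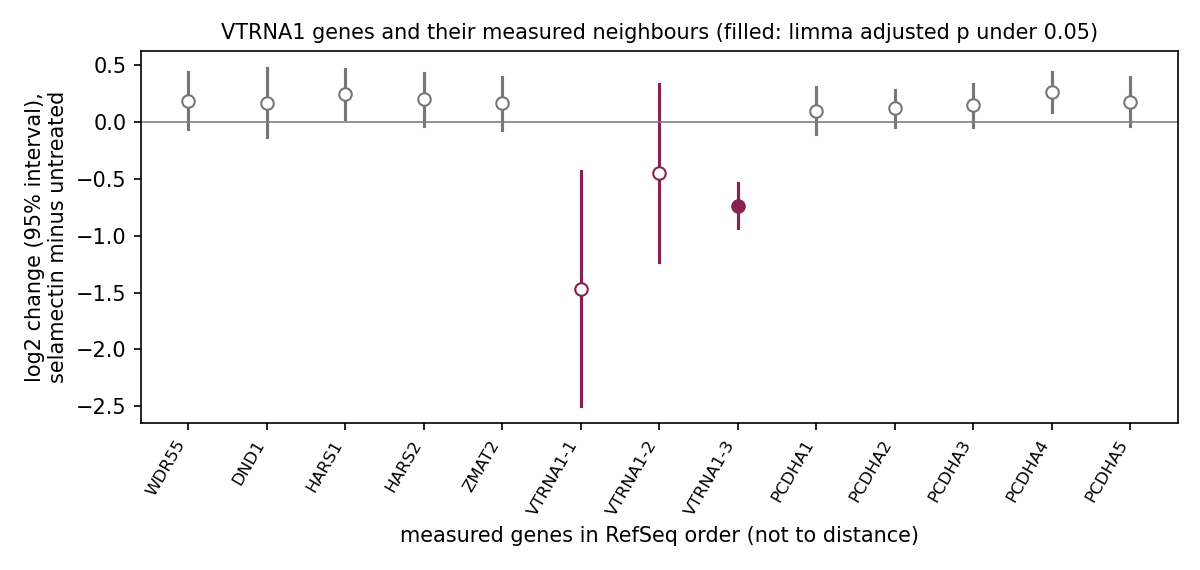
Log2 changes with 95% intervals for the 3 VTRNA1 genes and the 5 measured genes on each side in RefSeq order (horizontal axis, not to distance). The neighbours all lie between 0.10 and 0.27 and the 3 vault RNAs all lie below 0, with only VTRNA1-3 filled as past the threshold.

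The genes whose array values were most like those of VTRNA1-3 were RCN3, a reticulocalbin of the secretory pathway, BMP6, a bone morphogenetic protein, and RASL11A, a small GTPase. Likeness was the root mean square difference over the 6 arrays after each gene was centred on its own mean, and it was 0.05 log2 units for RCN3, 0.08 for BMP6 and 0.09 for RASL11A. RCN3 went from 10.21, 10.24 and 10.16 untreated to 9.45, 9.56 and 9.61 with selamectin, a log2 change of -0.66. BMP6 changed by -0.68 and RASL11A by -0.70. They were picked for this likeness and are given as a description.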

How the data were processed

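Affymetrix whole-transcript arrays were run on 3 untreated and 3 selamectin samples, grouped by title. The authors deposited 1 value for each of 33297 probe groups, taken as log2; RMA, the Transcriptome Analysis Console and Affymetrix's Expression Console are listed in the submitters' processing notes, with no versions or roles. RMA as commonly run makes the arrays' distributions alike, so a shift of all genes would be lost. Array medians lay between 7.47 and 7.51. No genome build was given.

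From these values, 18417 genes with 1 symbol entered a fit by lmFit and eBayes (with trend) of limma 3.58.1 under R 4.3.3, selamectin minus untreated, two-sided, with Benjamini-Hochberg adjustment over all of them and no filter. The number of arrays limits the precision: the median standard error was 0.09. Replicates are described as independent without saying how cultures were kept apart, so p-values measure the spread between these arrays. The members and lists were chosen with earlier results of these data known. Named are all members, of each list the genes past the threshold (up to 8) or else the 4 with the smallest p, the 3 genes most like a called member, and the 5 measured neighbours on each side. On simulated data with spreads drawn from the fitted prior, 64% of changes of 0.5 on the log2 scale were found and 99% of changes of 1, with 8 false calls among 171. With each gene's moderated spread, 20 of 204 calls were false, above the nominal rate.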

Additional observations from a re-analysis of the deposited data

How the results depend on the processing

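The fall of VTRNA1-3 kept its direction and its call in all 21 alternatives, with log2 changes from -0.77 to -0.68 and adjusted p at most 0.039, reached with all probe groups in the fit. Leaving out 1 array gave log2 changes from -1.81 to -0.88 for VTRNA1-1, -0.76 to 0.020 for VTRNA1-2, 0.28 to 0.44 for MVP and -0.095 to 0.022 for PARP4, and 1 to 2 vault genes called lower and 0 higher. VTRNA1-2 turned to 0.35 without both arrays numbered 1, an alternative chosen after seeing the data. The within-array difference VTRNA1-2 minus VTRNA1-3 ran from -0.0097 to 0.75 and VTRNA1-2 minus PARP4 from -0.78 to 0.0072.

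With array weights VTRNA1-1 passed (-1.38) and 2 vault genes were called lower, and at a threshold of 0.10 MVP passed (0.38), 1 vault gene called higher. With arrays centred on the small RNA clusters, 3 vault genes were called lower and 1 higher, VTRNA1-1 at -1.42, VTRNA1-2 at -0.41 and MVP at 0.43, with PARP4 at 0.025. In that fit limma put all weight on the spread common to genes of like brightness and none on a gene's own spread, which is large for VTRNA1-1 and VTRNA1-2; with the robust fit on the same scaling, added after seeing this, they no longer passed (adjusted p = 0.42 and 0.72), while MVP (0.43) did as the 1 gene called higher and PARP4 stayed at 0.025.

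Calls over all 18417 genes moved between settings, from 444 higher and 420 lower in the main fit. They were 1822 and 1464 with array weights, 879 and 723 at a threshold of 0.10, and 738 and 437 with small RNA centring. At 0.01 they were 77 and 96, and with all probe groups in the fit 82 and 85. Leaving out 1 array gave 76 to 685 higher and 100 to 464 lower. Counts in the other lists moved as follows, and are to be read beside these. Leaving out 1 array gave 0 to 3 polymerase III subunits called higher, 0 to 2 factors higher, 0 to 2 other polymerase III transcripts lower, 0 to 1 PARP genes lower, 0 to 1 multidrug transporters lower, and 3 to 24 small RNA clusters lower with 0 to 1 higher; without both arrays numbered 1 these were 0 subunits and 1 factor higher and 4 small RNA clusters lower with 1 higher. At a threshold of 0.01 no subunit or factor was called (0 and 0) and 3 small RNA clusters were lower. At 0.10, 5 subunits were higher and 1 lower, 1 partner higher, 1 multidrug transporter, 2 PARP genes and 19 small RNA clusters lower. With all probe groups in the fit there were 0 subunits, 0 factors and 2 small RNA clusters. With array weights there were 5 subunits higher and 1 lower, 1 factor lower, 1 other polymerase III transcript lower, 1 PARP gene higher and 2 lower, 1 multidrug transporter lower, and 10 small RNA clusters higher and 42 lower. With small RNA centring there were 2 subunits higher and 1 lower, 1 partner higher and 1 other polymerase III transcript, 1 PARP gene and 1 multidrug transporter lower; small RNA clusters were 44 lower and 1 higher, and 31 lower and 0 higher in the robust fit, where the counts of subunits, partners, other polymerase III transcripts, PARP genes and transporters were equal. With the dimmer genes left out at the median, 1 partner was higher, and 1 PARP gene and 5 of 121 small RNA clusters lower. A lower call for 1 PARP gene was also made at the 25th percentile filter, in the robust fit and after the second quantile normalization. The causes were not tested.

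The replicate numbers of the titles gave no clear sign of pairing: same-numbered arrays' deviations correlated at -0.01, 0.24 and -0.14 across genes. Those of differently numbered arrays ran from -0.21 to 0.30. Deviations from the mean of 3 arrays depend on each other, so these values cannot exclude pairing. The replicate block left VTRNA1-3 called (adjusted p = 0.012), gave 307 rises and 343 falls over all genes against 444 and 420 without it, and called 1 polymerase III subunit lower. The block changed no other count of the lists by more than 1.5 times.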
